A study of Mus musculus with 9 samples.

Results

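The 10 genes described here carry glucose into the heart cell, trap it there, or make lactate and exchange it with the blood, and were followed in mouse heart before birth, just after birth and in the adult. They are the glucose transporter genes Slc2a1, Slc2a3, Slc2a4 and Slc2a12, the hexokinase genes Hk1 and Hk2, the lactate transporter genes Slc16a1 and Slc16a3, and the lactate dehydrogenase genes Ldha and Ldhb. They were chosen by gene name from the table of coding gene levels, where all 10 were found among 22481 genes, and all 10 passed the filter of a mean of at least 1 FPKM. FPKM is the number of sequenced fragments scaled by transcript length and by library size, so it can be set side by side between genes. Total RNA of heart tissue from wild type mice was sequenced in embryos on day 18 (E18), in pups at postnatal day 3 (3d) and in adults at 8 weeks (8w), with 3 libraries for every stage. The labels also name the cell type, as mouse embryonic, neonatal or adult cardiocytes, and they call the libraries biological replicates but do not tie each to its own animal. The spread behind every p-value given here is that between libraries, which may be partly technical. The series set out to compare transcription in embryonic, neonatal and adult hearts.

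Glucose enters a heart cell down its gradient through transporters of the GLUT family, and hexokinase at once phosphorylates it to glucose 6-phosphate, which cannot leave. Glycolysis turns glucose 6-phosphate into pyruvate, and lactate dehydrogenase interconverts pyruvate and lactate, which crosses the cell membrane with a proton through monocarboxylate transporters. The fetal heart works at low oxygen and relies on glycolysis and lactate, whereas the adult heart burns mainly fatty acids and takes up glucose in response to insulin and contraction. Several of these steps have a ubiquitous or glycolytic form and a form typical of oxidative or insulin-responsive muscle.

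The estimated fragments on coding genes, which carry 1 scaling factor per library, summed to 11407596 to 12277548. With that factor divided out, the recovered fragments ran from 10694052 in 3d replicate 1 to 14201711 in 8w replicate 1. Libraries of 1 stage correlated at Pearson's r of 0.986 to 0.991 at E18, 0.963 to 0.987 at 3d and 0.975 to 0.983 at 8w, over the log2 levels of 11930 tested genes. At 3d the values that involve replicate 1 were 0.974 and 0.963, below the 0.987 between the other replicates, and 7 of the 10 genes had their lowest 3d level in that library. Defining cardiomyocyte markers were present in all libraries, with a summed level of 24064 to 24557 FPKM at E18, 22669 to 24072 FPKM at 3d and 39738 to 42597 FPKM at 8w. Of these 10 markers, 8 were called higher and 0 lower at 8w than at 3d (5 and 2 with quantile normalization). The summed level of 8 erythroid markers was 3276 to 3568 FPKM at E18, 1015 to 1368 FPKM at 3d and 702 to 1584 FPKM at 8w, with 0 of 8 higher and 5 of 8 lower at 3d than at E18. At 8w 0 were higher and 6 lower than at 3d (0 and 4 with edgeR), and 8 of 8 were lower than at E18. For 8 markers of dividing cells the sums were 439 to 546 FPKM at E18, 196 to 272 FPKM at 3d and 8.36 to 13.7 FPKM at 8w. All 8 were lower in each comparison. At 3d against E18, 7 were lower with edgeR and 6 with quantile normalization or median centring. For 9 macrophage and neutrophil markers they were 34.3 to 39.5 FPKM, 46.1 to 66.4 FPKM and 96.8 to 147 FPKM over the same stages. Of the 8 of these that were tested, 2 were higher and 0 lower at 3d than at E18 (5 and 0 with edgeR). At 8w 5 were higher and 2 lower, both against 3d and against E18. The part of these cell types in the levels below was not tested. Each level is taken over all cells behind a library, so fewer cells of a type and less RNA per cell cannot be told apart. The labels do not say whether cells were isolated from the tissue.

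After birth most of the set first fell, and by 8w it had split into genes above and genes below their fetal level. Of the 10 genes, 0 were higher and 7 were lower at 3d than at E18: Slc2a1, Slc2a3, Hk1, Hk2, Slc16a1, Slc16a3 and Ldha. In the same limma-trend fit on log2(FPKM + 1), with a Benjamini-Hochberg adjusted p under 0.05, 26.4% of all tested genes were called in either direction and 21.4% were called lower. At 8w, 5 genes were higher than at 3d (Slc2a4, Slc2a12, Hk2, Slc16a1 and Ldhb) and 4 were lower (Slc2a1, Slc2a3, Hk1 and Slc16a3), where 58.4% of all tested genes were called, 21.4% higher and 37.1% lower. Over the whole interval, 8w against E18, the set split evenly with 5 genes higher and 5 lower, beside 65.1% of all tested genes called, 17.8% higher and 47.3% lower. In the comparisons with 8w most genes of the heart were called, so the counts of members say less there than the sizes and directions given below.

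Taking 3d against E18 first, then 8w against 3d and last 8w against E18, the 10 genes had a median log2 fold change of -0.90, 0.12 and -0.35. Over all tested genes it was -0.15, -0.18 and -0.32 on the deposited FPKM scale, so the typical gene also drifted down on that scale. The calls over all genes leaned the same way, with 596 higher and 2557 lower at 3d than at E18, whereas edgeR with TMM factors on recovered fragments gave 1376 higher and 1260 lower. For 8w against 3d the fit gave 2550 higher and 4421 lower against 3612 and 3534 with edgeR, and for 8w against E18 it gave 2120 and 5641 against 3879 and 3565. Counted by library ranges alone, at 3d against E18, 1 member lay wholly above and 8 wholly below, where 9.64% and 35.4% of all tested genes did. At 8w against 3d 5 lay wholly above and 2 wholly below (22.6% and 38.7% of all tested genes), and at 8w against E18 5 lay on each side (20.4% and 52.4%). With edgeR, 7, 8 and 10 of the 10 genes were called in the 3 comparisons, where 22.1%, 59.9% and 62.4% of all tested genes were called. At 3d against E18 the edgeR calls were 1 higher, Slc2a4, and 6 lower, since Slc16a1 was not called. Quantile normalization and median centring also gave 1 higher and 6 lower there. Log2 fold changes below are later minus earlier stage on log2(FPKM + 1), with their standard errors, and they understate the change of genes with low FPKM.

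**Figure D1:**
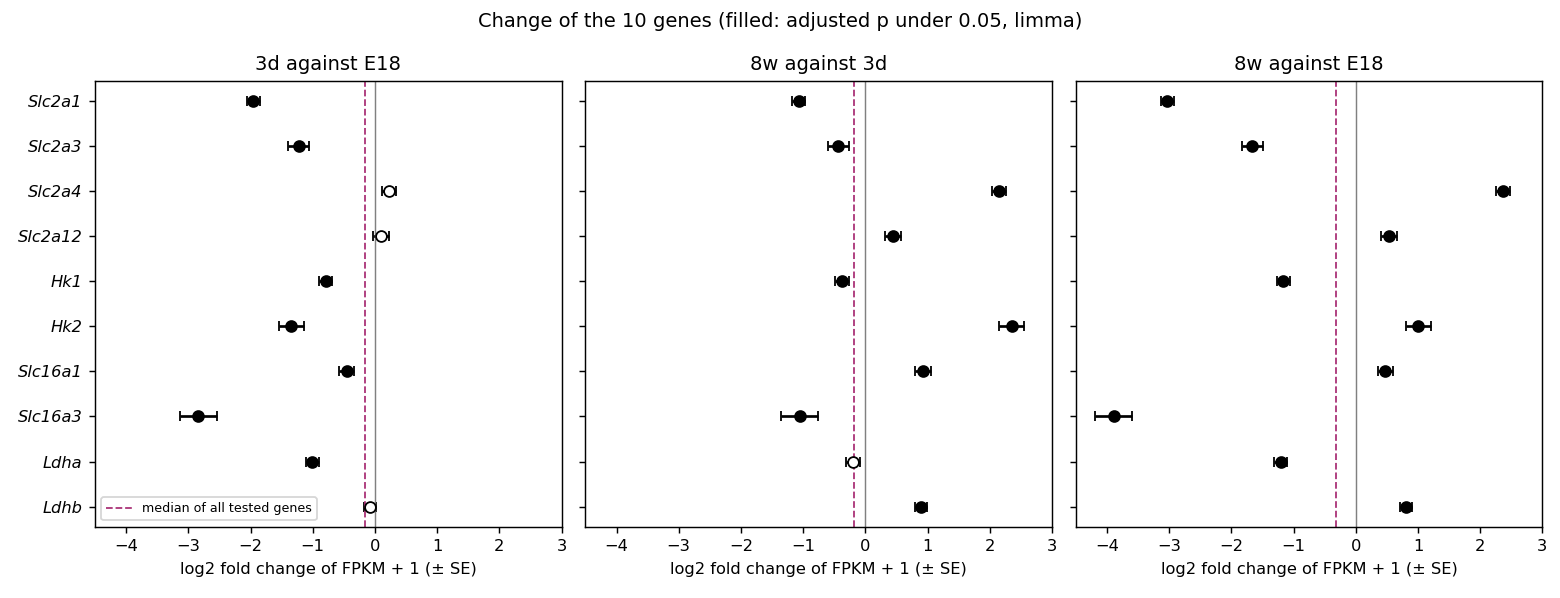
Log2 fold change of FPKM + 1 for the 10 genes in the 3 comparisons (x axis, later minus earlier stage, bars are the standard error from limma, n = 3 libraries per stage), with filled points for an adjusted p under 0.05 and the dashed line at the median of all tested genes. In the left panel 7 filled points lie left of 0 and none right of it, and in the right panel 5 lie on each side, from -3.89 for Slc16a3 to 2.37 for Slc2a4.

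Promoter windows are printed for Slc2a1, Slc16a3 and Ldha, which fell together, and for Hk2 and Slc16a1, whose levels dipped at 3d. That of Ldhb, which moved the other way, is also printed. Hk1 and Slc2a3 fell as well but are not among those printed. The windows are the 250 bases before each RefSeq start (GRCm38.p6), 5′ to 3′ on the strand of the gene, and capitals mark every ACGTG on either strand (CACGT when it lies on the other strand). ACGTG is a core of the element bound by hypoxia-inducible factors and is also contained, on both strands, in CACGTG, the E-box bound by MYC and other factors. The Slc2a1 window is cut to its first 226 bases, since the GENCODE gene starts inside it, and its last 10 bases lie within that gene.
Slc2a1: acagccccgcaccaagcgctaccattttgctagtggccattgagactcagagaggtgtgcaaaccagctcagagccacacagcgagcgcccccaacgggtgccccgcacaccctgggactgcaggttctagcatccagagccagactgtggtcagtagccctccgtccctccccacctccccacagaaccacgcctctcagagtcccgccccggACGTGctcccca
Slc16a3: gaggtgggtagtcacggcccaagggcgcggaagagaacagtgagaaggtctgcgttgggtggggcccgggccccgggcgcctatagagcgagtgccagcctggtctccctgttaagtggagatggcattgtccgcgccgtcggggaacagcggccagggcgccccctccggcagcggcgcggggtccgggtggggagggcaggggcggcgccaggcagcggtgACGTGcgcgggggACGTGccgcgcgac
Ldha: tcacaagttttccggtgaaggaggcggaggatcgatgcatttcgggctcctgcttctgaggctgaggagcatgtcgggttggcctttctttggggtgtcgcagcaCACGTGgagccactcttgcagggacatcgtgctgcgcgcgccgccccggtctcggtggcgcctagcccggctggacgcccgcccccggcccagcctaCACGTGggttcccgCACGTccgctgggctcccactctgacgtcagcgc
Hk2: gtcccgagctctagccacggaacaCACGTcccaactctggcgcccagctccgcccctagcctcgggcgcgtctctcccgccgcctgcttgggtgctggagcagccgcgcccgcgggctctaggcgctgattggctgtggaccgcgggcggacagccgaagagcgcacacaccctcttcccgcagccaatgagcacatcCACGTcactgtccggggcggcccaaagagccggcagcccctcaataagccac
Slc16a1: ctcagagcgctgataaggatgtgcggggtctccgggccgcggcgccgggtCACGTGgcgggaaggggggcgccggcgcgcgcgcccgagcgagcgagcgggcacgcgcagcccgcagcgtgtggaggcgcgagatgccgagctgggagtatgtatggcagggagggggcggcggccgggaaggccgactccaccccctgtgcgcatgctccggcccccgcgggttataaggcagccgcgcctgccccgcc
Ldhb: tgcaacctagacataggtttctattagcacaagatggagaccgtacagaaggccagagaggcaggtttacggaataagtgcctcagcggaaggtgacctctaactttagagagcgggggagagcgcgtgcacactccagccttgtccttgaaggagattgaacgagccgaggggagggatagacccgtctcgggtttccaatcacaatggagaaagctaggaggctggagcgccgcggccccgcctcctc

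The Slc2a1 window (chr4:119108495-119108720, plus strand) has 1 ACGTG, 36 bases before the RefSeq start, and these letters span the GENCODE start. That of Slc16a3 (chr11:120948817-120949066, plus strand) has ACGTG 27 and 14 bases before the start. That of Ldha (chr7:46845554-46845803, plus strand) has the palindrome CACGTG at 2 places, which ACGTG overlaps on both strands, and a further match 34 bases before the start. Hk2 (chr6:82774455-82774704, minus strand) has the other-strand form 226 and 52 bases before the start, and Slc16a1 (chr3:104638414-104638663, plus strand) has 1 CACGTG. Ldhb (chr6:142507958-142508207, minus strand) has none of these letters in its window. The windows of Slc16a3 and Ldha lie inside the annotated genes, downstream of an earlier annotated start.

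RefSeq windows were matched for 8 of the 10 genes, 10 windows in all, of which 5 held ACGTG. Among all 32851 promoter windows of the same length 16.6% held ACGTG, and 6.02% held CACGTG, which was in 2 of the 10. The 5 windows without ACGTG were both windows of Hk1, the second window of Ldha, and the windows of Ldhb and Slc2a12. The windows printed for falling or dipping genes are the 5 that hold ACGTG, so no link between these letters and a fall can be read from them. Hk1, which also fell, has none in its unprinted windows, nor has the unprinted second window of Ldha. Such a link was not tested. A match describes the letters and shows no binding, and the windows of Slc2a3 and Slc2a4 are not shown here.

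Slc2a1 encodes GLUT1, the insulin-independent transporter of most fetal tissues, and its level fell at each step. The gene (ENSMUSG00000028645) lies on chromosome 4, from 119108711 to 119137983 on the plus strand of GRCm38. Slc2a1 stood at 34.7, 34.1 and 34.0 FPKM in the E18 libraries, at 7.40, 8.98 and 7.95 FPKM in the 3d libraries, and at 3.10, 3.63 and 3.27 FPKM in the 8w libraries. The stages did not overlap, and the E18 libraries were nearly equal, at a mean of 34.3 ± 0.381 FPKM (SD, n = 3). The mean at 3d was 4.23-fold lower than at E18 (log2 fold change -1.96 ± 0.10, adjusted p = 1.02e-05, limma), and that at 8w was 2.43-fold lower than at 3d (-1.07 ± 0.10, adjusted p = 9.21e-06). Over the whole interval the mean was 10.3-fold lower at 8w than at E18. Endothelial cells also use GLUT1, and the summed level of 10 endothelial markers was 409.7 to 440.3 FPKM at E18, 411 to 535 FPKM at 3d and 383 to 451 FPKM at 8w. Of the 10, 2 were higher and 0 lower at 3d than at E18 (5 and 0 with edgeR). At 8w 2 were higher and 3 lower than at 3d (2 and 1 with edgeR). Against E18, 2 were higher and 2 lower at 8w (6 and 0 with edgeR).

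Slc2a4 encodes GLUT4, the transporter that insulin and contraction bring to the surface of muscle and fat cells, and it rose after 3d. It lies on chromosome 11, from 69942539 to 69948188 on the minus strand (ENSMUSG00000018566). Slc2a4 stood at 21.4, 23.2 and 20.7 FPKM at E18, at 25.7, 27.8 and 23.2 FPKM at 3d, and at 101, 117 and 134 FPKM at 8w. All 8w libraries were above all 3d libraries, by 4.58-fold between the means (log2 fold change 2.15 ± 0.12, adjusted p = 1.51e-07, limma). The 3d libraries all lay just above the E18 libraries, and that difference, 0.22 ± 0.12, missed the threshold (adjusted p = 0.183). It passed it with quantile normalization (0.40, adjusted p = 0.0228), with median centring (0.40, adjusted p = 0.0345) and with edgeR (0.39, adjusted p = 0.0148).

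Fat and skeletal muscle also use GLUT4, and their markers were read beside it. The summed level of 7 adipocyte markers was 0 at E18, 0.0428 to 0.208 FPKM at 3d and 2.84 to 4.66 FPKM at 8w, where Ucp1 was listed at 0. The summed level of 10 skeletal muscle markers, led by Ckm, which heart also expresses, was 640 to 664 FPKM at E18, 450 to 619 FPKM at 3d and 608 to 763 FPKM at 8w. Only Ckm and Mylpf passed the filter, and at 8w against 3d Ckm was higher (log2 fold change 0.36, adjusted p = 0.0362, limma) while Mylpf was not called. Myh1, Myh2, Myh4 and Tnnc2 were listed at 0 at 8w.

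Slc2a3 encodes GLUT3, a high-affinity transporter known from neurons and early embryos, and it was low throughout. It lies on chromosome 6, from 122727809 to 122801640 on the minus strand (ENSMUSG00000003153). Slc2a3 stood at 4.44, 3.90 and 4.44 FPKM at E18, at 0.845, 1.66 and 1.30 FPKM at 3d, and at 0.440, 0.899 and 0.678 FPKM at 8w. The E18 libraries lay above all others, while 3d and 8w overlapped. The mean was 3.36-fold lower at 3d than at E18 (log2 fold change -1.23 ± 0.17, adjusted p = 0.00108, limma). For 8w against 3d the difference of -0.43 ± 0.17 passed narrowly (adjusted p = 0.0458), and it did not pass with quantile normalization (-0.04, adjusted p = 0.854), or with median centring (-0.25, adjusted p = 0.227). It was also lost without any 1 of the E18 libraries, 3d replicate 2 or 3, or 8w replicate 1 or 3 (adjusted p = 0.0591 to 0.175, limma). With edgeR the same difference was -0.95 (adjusted p = 0.00925). That fit used recovered fragments, 34, 63 and 24 at 8w and 58, 89 and 78 at 3d, which overlap. The estimated fragments, scaled per library, were 27.3, 55.8 and 23.3 at 8w and 63.8, 91.7 and 78.7 at 3d, without overlap.

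Slc2a12 encodes GLUT12, a less studied transporter of muscle and fat, and it rose modestly by 8w. It lies on chromosome 10, from 22645011 to 22704285 on the plus strand (ENSMUSG00000037490), and the deposited table gives it a locus shared with 1 other gene. Slc2a12 stood at 1.84, 1.79 and 2.42 FPKM at E18, at 2.09, 2.39 and 2.15 FPKM at 3d, and at 3.32, 3.52 and 3.18 FPKM at 8w. E18 and 3d overlapped, with a difference of 0.09 ± 0.13 (adjusted p = 0.633, limma), and all 8w libraries lay above both. The mean at 8w was 1.51-fold that at 3d (log2 fold change 0.44 ± 0.13, adjusted p = 0.0132).

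Summed over the 4 glucose transporter genes the level was 62.4 ± 0.680 FPKM at E18, 37.2 ± 3.28 FPKM at 3d and 124 ± 16.6 FPKM at 8w (SD, n = 3 each). The sum was thus lowest at 3d, where Slc2a1 was already low and Slc2a4 was still near its E18 level. Slc2a1 made up 61.9%, 59.6% and 62.1% of the summed FPKM of Slc2a1 and Slc2a4 in the E18 libraries, 22.4%, 24.4% and 25.5% in the 3d libraries, and 2.98%, 3.02% and 2.39% in the 8w libraries. The log2 ratio of Slc2a1 over Slc2a4 was 2.32 lower at 3d than at E18 and 3.47 lower at 8w than at 3d. Of 12 such differences over 4 gene pairs, 11 reached an exact permutation p of 0.1, the smallest that 3 against 3 libraries allow, and 0.109 after Benjamini-Hochberg adjustment over the 12. In those 11 the stages did not overlap in any library.

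**Figure D2:**
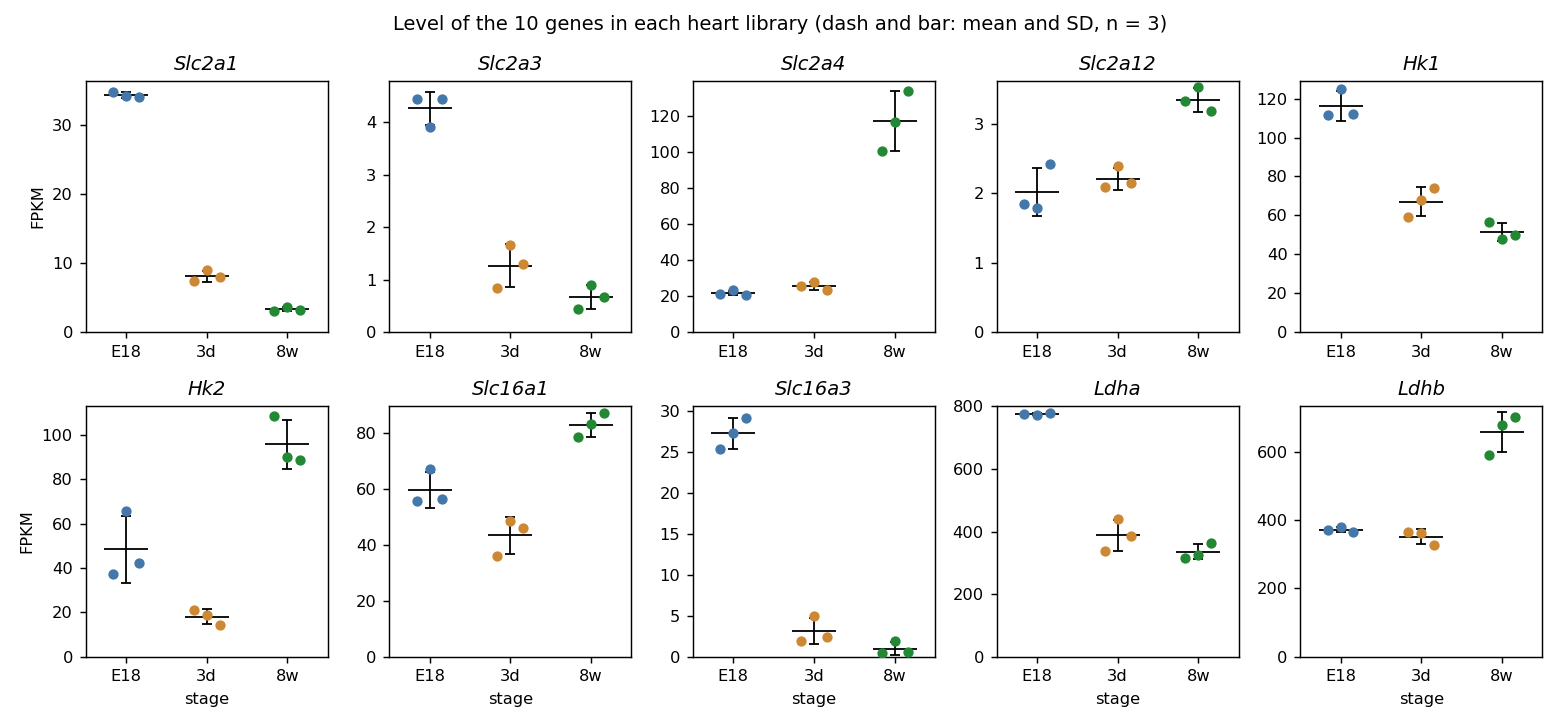
FPKM of each of the 10 genes (y axis, from 0) in each library at E18, 3d and 8w (x axis), where points are libraries and the dash and bar are the mean and SD of 3. Slc2a1, Slc2a3, Slc16a3 and Ldha are highest at E18, Slc2a4 and Ldhb are highest at 8w, and Hk2 and Slc16a1 are lowest at 3d.

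The hexokinase genes took different courses: Hk1 fell at each step, and Hk2 fell at 3d and rose at 8w to above its fetal level. Hk1 encodes the constitutive hexokinase of brain and red cells, and Hk2 the insulin-regulated form of muscle and fat; both bind the outer mitochondrial membrane. Hk1 (ENSMUSG00000037012) lies on chromosome 10, from 62268855 to 62379908 on the minus strand, and Hk2 (ENSMUSG00000000628) on chromosome 6, from 82725025 to 82774454 on the minus strand. The deposited table gives Hk1 a locus, from 61838236 to 62899118, that it shares with 17 other genes, and how fragments were divided among them was not tested.

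Hk1 stood at 112, 125 and 112 FPKM at E18, at 59.1, 67.7 and 74.3 FPKM at 3d, and at 56.5, 47.9 and 49.7 FPKM at 8w. No library of a later stage reached a library of an earlier one. The mean at 3d was 1.73-fold lower than at E18 (log2 fold change -0.79 ± 0.11, adjusted p = 0.00104, limma). The further fall at 8w against 3d was 1.30-fold (-0.37 ± 0.11, adjusted p = 0.0113), and it did not pass with median centring (-0.20, adjusted p = 0.225) or with edgeR (-0.16, adjusted p = 0.147). Hk1 is expressed in red cells, and the erythroid markers given above fell beside it between E18 and 3d. At 8w against 3d 6 of those 8 markers were also called lower, while their summed levels overlapped.

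Hk2 stood at 37.3, 65.7 and 42.1 FPKM at E18, at 21.1, 18.8 and 14.3 FPKM at 3d, and at 108, 90.1 and 88.5 FPKM at 8w. The stages did not overlap, but E18 replicate 2 stood well above the other E18 libraries. In estimated fragments the E18 libraries were closer, with 2675, 3122 and 2626, against 1162, 1269 and 1126 at 3d and 6085, 5723 and 6381 at 8w. The authors' FPKM thus gave between 47.5 and 78.6 fragments per FPKM for Hk2, 1.65-fold between libraries, whereas for Slc2a1 this stayed within 36.5 and 37.4. The mean FPKM was 2.68-fold lower at 3d than at E18 (log2 fold change -1.35 ± 0.20, adjusted p = 0.00154, limma) and 5.29-fold higher at 8w than at 3d (2.35 ± 0.20, adjusted p = 3.92e-06). At 8w the level was 1.98-fold that at E18 (1.01 ± 0.20, adjusted p = 0.0012). With edgeR on recovered fragments the same differences were -1.05, 2.55 and 1.49.

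Hk1 and Hk2 together stood at 165 ± 22.8 FPKM at E18, 85.1 ± 4.37 FPKM at 3d and 147 ± 15.5 FPKM at 8w (SD, n = 3 each). Hk1 made up 75.0%, 65.6% and 72.7% of the pair in the E18 libraries, 73.7%, 78.3% and 83.8% in the 3d libraries, and 34.3%, 34.7% and 36.0% in the 8w libraries. In FPKM the E18 and 3d shares overlapped, and the log2 ratio of Hk1 over Hk2 differed by 0.60 between them (exact permutation p = 0.2, adjusted p = 0.2). In estimated fragments the Hk1 shares were 68.3%, 64.4% and 67.8% at E18 and 71.7%, 71.9% and 73.9% at 3d. Those did not overlap, and the log2 ratio differed by 0.39. Between 8w and 3d the ratio was 2.80 lower, so the main hexokinase transcript was Hk1 at E18 and 3d and Hk2 at 8w.

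Of the lactate transporters, Slc16a3 nearly vanished after birth while Slc16a1 dipped and then rose. Slc16a3 encodes MCT4, the low-affinity exporter of glycolytic cells, and Slc16a1 encodes MCT1, a higher-affinity carrier through which heart also takes lactate up. Slc16a3 (ENSMUSG00000025161) lies on chromosome 11, from 120948480 to 120960868 on the plus strand, and Slc16a1 (ENSMUSG00000032902) on chromosome 3, from 104638668 to 104658462 on the plus strand.

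Slc16a3 stood at 25.3, 27.3 and 29.2 FPKM at E18, at 1.96, 5.0 and 2.45 FPKM at 3d, and at 0.416, 1.97 and 0.633 FPKM at 8w. The E18 libraries were far above the rest, and 8w replicate 2 reached the lowest 3d library. In estimated fragments Slc16a3 had 710.2, 768 and 712 at E18, 59.4, 117 and 70.6 at 3d, and 16.9, 31.0 and 18.5 at 8w, so that in fragments the 3d and 8w libraries did not overlap. The fragments per FPKM ran from 15.8 to 40.6 between libraries, a 2.57-fold spread and the widest of the 10 genes. The mean FPKM was 8.70-fold lower at 3d than at E18, the largest fall of the set in that comparison (log2 fold change -2.84 ± 0.30, adjusted p = 0.000354, limma). At 8w it was 3.12-fold lower than at 3d (-1.05 ± 0.30, adjusted p = 0.0109; -1.71 with edgeR) and 27.1-fold lower than at E18 (-3.89 ± 0.30, adjusted p = 1.09e-06). The 8w mean rests largely on replicate 2: without that library it was 0.524 FPKM, 5.98-fold lower than at 3d and 52.0-fold lower than at E18.

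Slc16a1 stood at 55.7, 67.2 and 56.5 FPKM at E18, at 36.0, 48.5 and 46.1 FPKM at 3d, and at 78.6, 83.4 and 87.2 FPKM at 8w. The stages did not overlap, with 3d lowest and 8w highest. The mean was 1.37-fold lower at 3d than at E18 (log2 fold change -0.45 ± 0.12, adjusted p = 0.0209, limma). That call was lost with quantile normalization (-0.26, adjusted p = 0.158), median centring (-0.28, adjusted p = 0.189), edgeR (-0.26, adjusted p = 0.147) and without E18 replicate 2 (-0.37, adjusted p = 0.0817). The rise at 8w was 1.91-fold over 3d (0.93 ± 0.12, adjusted p = 8.96e-05) and 1.39-fold over E18 (0.47 ± 0.12, adjusted p = 0.00595).

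The lactate transporters summed to 87.0 ± 6.80 FPKM at E18, 46.7 ± 7.96 FPKM at 3d and 84.1 ± 4.53 FPKM at 8w (SD, n = 3 each). The sums at 8w and E18 were close while the genes behind them had changed. Slc16a3 made up 31.3%, 28.9% and 34.1% of the pair in the E18 libraries, 5.16%, 9.35% and 5.04% in the 3d libraries, and 0.526%, 2.30% and 0.721% in the 8w libraries. The log2 ratio of Slc16a3 over Slc16a1 was 2.77 lower at 3d than at E18 and 5.56 lower at 8w than at E18. Of the pairs, this and Slc2a1 with Slc2a4 shifted most.

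**Figure D3:**
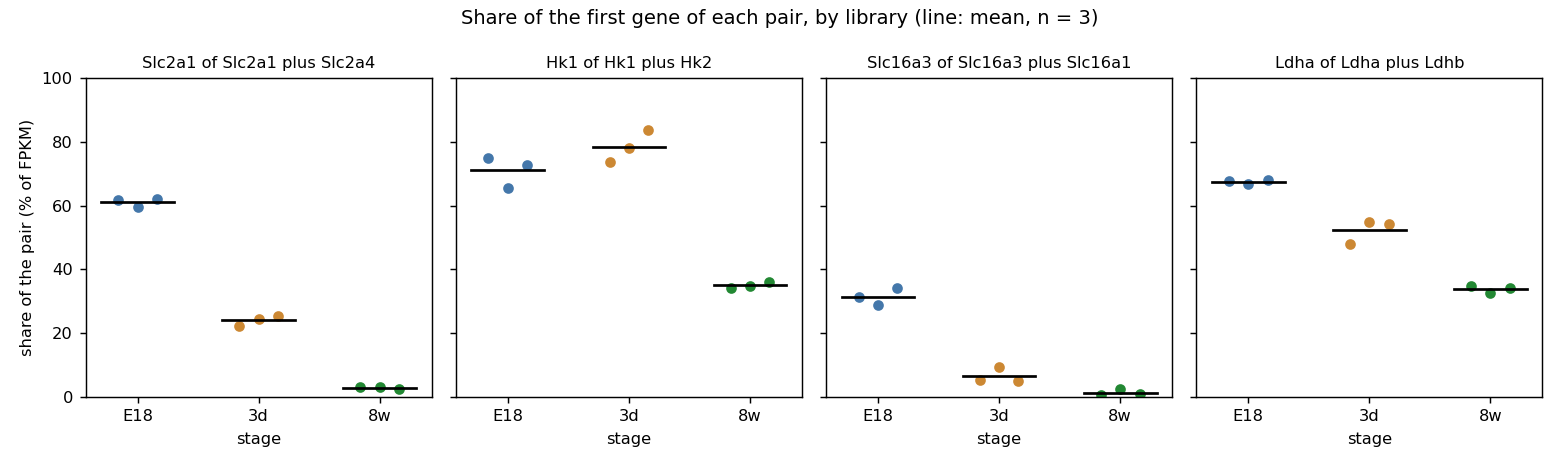
Share of summed FPKM (y axis, percent) held by the first gene of each pair in each library at E18, 3d and 8w (x axis); points are libraries and lines are means of 3. Slc2a1 falls to between 2.39% and 3.02% of its pair at 8w and Slc16a3 to under 2.31%, while Hk1 and Ldha lie between 32.5% and 36.0% there.

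The lactate dehydrogenase genes were the most abundant of the set and shifted from Ldha to Ldhb. Ldha encodes the M subunit, typical of glycolytic tissue, and Ldhb the H subunit, typical of oxidative heart; the active enzyme is a tetramer of either or both. Ldha (ENSMUSG00000063229) lies on chromosome 7, from 46841475 to 46855627 on the plus strand, and Ldhb (ENSMUSG00000030246) on chromosome 6, from 142490249 to 142507957 on the minus strand.

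Ldha stood at 776, 772 and 779 FPKM at E18, at 338, 439 and 386 FPKM at 3d, and at 317, 327 and 363 FPKM at 8w. The E18 libraries were nearly equal and lay above all others, and 3d and 8w overlapped. The mean at 3d was 2.00-fold lower than at E18 (log2 fold change -1.01 ± 0.11, adjusted p = 0.00042, limma). For 8w against 3d the difference was -0.20 ± 0.11 and missed the threshold (adjusted p = 0.137). It passed it with quantile normalization (-0.52, adjusted p = 0.00167) and without 3d replicate 1 (-0.30, adjusted p = 0.0206), and its sign turned with edgeR (0.14, adjusted p = 0.306).

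Ldhb stood at 371, 380.5 and 366 FPKM at E18, at 366, 362 and 327 FPKM at 3d, and at 592, 678 and 703 FPKM at 8w. The 3d libraries lay just under the E18 libraries, and all 8w libraries lay well above both. The difference at 3d against E18 was -0.09 ± 0.10 (adjusted p = 0.552, limma), and its sign turned with quantile normalization (0.18), median centring (0.09) and edgeR (0.04). At 8w the mean was 1.87-fold that at 3d (log2 fold change 0.90 ± 0.10, adjusted p = 1.95e-05) and 1.77-fold that at E18 (0.81 ± 0.10, adjusted p = 2.98e-05).

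Ldha and Ldhb summed to 1148 ± 4.08 FPKM at E18, 739 ± 53.7 FPKM at 3d and 993 ± 79.2 FPKM at 8w (SD, n = 3 each). Ldha made up 67.7%, 67.0% and 68.0% of the pair in the E18 libraries, 48.0%, 54.8% and 54.2% in the 3d libraries, and 34.9%, 32.5% and 34.1% in the 8w libraries. The log2 ratio of Ldha over Ldhb was 0.92 lower at 3d than at E18 and 1.10 lower at 8w than at 3d. The pair thus shifted by like amounts in both intervals, first with the fall of Ldha and then with the rise of Ldhb.

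At E18 the order of mean levels was Ldha (776 FPKM), Ldhb (372), Hk1 (116), Slc16a1 (59.8), Hk2 (48.3), Slc2a1 (34.3), Slc16a3 (27.3), Slc2a4 (21.8), Slc2a3 (4.26) and Slc2a12 (2.02). Only Slc16a1 and Hk2 of these neighbours overlapped between libraries at E18. At 3d it was Ldha (388 FPKM), Ldhb (351), Hk1 (67.1), Slc16a1 (43.5), Slc2a4 (25.6), Hk2 (18.1), Slc2a1 (8.11), Slc16a3 (3.14), Slc2a12 (2.21) and Slc2a3 (1.27). There the libraries of Ldha and Ldhb overlapped, as did those of Slc16a3 and Slc2a12. At 8w it was Ldhb (657 FPKM), Ldha (336), Slc2a4 (117), Hk2 (95.7), Slc16a1 (83.0), Hk1 (51.4), Slc2a12 (3.34), Slc2a1 (3.33), Slc16a3 (1.00) and Slc2a3 (0.672). At 8w the overlapping neighbours were Slc2a4 with Hk2, Slc2a12 with Slc2a1, and Slc16a3 with Slc2a3.

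Genes of the neighbouring steps were read as whole lists. Beside the counts in each list, 26.4% of all tested genes were called at 3d against E18. At 8w 58.4% were called against 3d and 65.1% against E18. Of 18 genes of the later steps of glycolysis, 2 were higher and 11 lower at 3d than at E18, with a median log2 fold change of -0.69 against -0.15 over all tested genes. With quantile normalization or median centring 2 were higher and 9 lower, and with edgeR 1 and 10. Pgam1, which converts phosphoglycerate, stood at 11.9 ± 1.94 FPKM at 3d and 50.9 ± 1.22 FPKM at E18 (log2 fold change -2.02), and Pfkl, the liver form of phosphofructokinase, at 20.6 ± 4.40 and 51.7 ± 8.61 FPKM (-1.30). Pfkfb2, the heart enzyme that makes the activator of phosphofructokinase, was higher at 3d than at E18 (0.52) and at 8w than at 3d (1.82). At 8w against 3d, 7 of the 18 were higher and 5 lower (median 0.21 against -0.18; 9 and 3 with edgeR): Pfkm, the muscle phosphofructokinase, was at 319.7 ± 35.7 FPKM at 8w and 89.2 ± 6.96 FPKM at 3d (1.83), and Eno1, the ubiquitous enolase, at 66.4 ± 2.17 and 155 ± 12.9 FPKM (-1.21). Over the whole interval 5 were higher and 10 lower (median -0.72 against -0.32; 7 and 9 with median centring). Gapdh is the exception in precision, with 207 ± 180 FPKM at E18, 65.9 ± 80.6 FPKM at 3d and 141 ± 222 FPKM at 8w, and it was not called.

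The next list holds the mitochondrial pyruvate carrier, pyruvate dehydrogenase, and the kinases and phosphatases that switch that enzyme off and on. Of these 12 genes, 9 were higher and 1 lower at 8w than at 3d (median log2 fold change 0.80 against -0.18), while at 3d against E18 1 was higher and 3 lower (median -0.25 against -0.15; 2 and 2 with edgeR). Over the whole interval 10 were higher and 2 lower. Mpc1, a subunit of the mitochondrial pyruvate carrier, was at 259 ± 29.3 FPKM at 8w and 70.1 ± 1.31 FPKM at 3d (1.87). The pyruvate dehydrogenase kinases, which switch off pyruvate oxidation, did not move as one. Pdk4 was at 474 ± 319 FPKM at 8w and 69.6 ± 20.7 FPKM at 3d (2.59), and was also higher at 3d than at E18 (1.55), whereas Pdk3 was at 2.32 ± 0.156 FPKM at 8w and 23.8 ± 3.79 FPKM at 3d (-2.89) and Pdk1 was lower at 3d than at E18 (-0.78).

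Glucose 6-phosphate can also go to glycogen or the pentose phosphate path. Of 15 such genes 0 were higher and 6 lower at 3d than at E18 (median -0.41 against -0.15; 1 and 7 with edgeR). At 8w 6 were higher and 6 lower than at 3d (median 0.01 against -0.18; 6 and 4 with edgeR). Over the whole interval 3 were higher and 8 lower (median -0.35 against -0.32; 4 and 6 with edgeR or median centring). Gys1, glycogen synthase, was at 27.8 ± 2.57 FPKM at 3d and 57.2 ± 2.72 FPKM at E18 (log2 fold change -1.02). Pygm, the muscle glycogen phosphorylase, was at 380.1 ± 30.6 FPKM at 8w and 137 ± 26.0 FPKM at 3d (1.48). Gyg, the glycogen primer, was at 97.2 ± 1.76 FPKM at 8w and 183 ± 21.1 FPKM at 3d (-0.90).

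Of 21 tested partners and regulators of the transporters, 3 were higher and 1 lower at 3d than at E18 (median -0.06 against -0.15), 3 were higher and 6 lower at 8w than at 3d (median -0.11 against -0.18), and 6 were higher and 8 lower at 8w than at E18 (median -0.17 against -0.32). The balance of this list turned with the scale, since edgeR called 7 higher and 3 lower at 8w than at 3d, and 9 higher and 1 lower at 8w than at E18. Txnip, which promotes removal of GLUT1 and GLUT4 from the cell surface, was at 396 ± 57.0 FPKM at 3d and 168 ± 11.8 FPKM at E18 (log2 fold change 1.22, adjusted p = 0.00139, limma). Bsg, basigin, the chaperone that MCT1 and MCT4 need to reach the membrane, was at 646 ± 17.7 FPKM at 8w and 234 ± 24.2 FPKM at 3d (1.47, adjusted p = 5.34e-07). The Rab GTPase regulators of GLUT4 traffic moved in opposite directions at 8w against 3d, with Tbc1d4 higher (1.10) and Tbc1d1 lower (-1.23).

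Of 9 hypoxia pathway regulators, 1 was higher and 2 lower at 3d than at E18 (median -0.17 against -0.15), 4 were higher and 2 lower at 8w than at 3d (median -0.13 against -0.18), and 3 were higher and 4 lower at 8w than at E18 (median -0.31 against -0.32). Egln3, an oxygen-sensing prolyl hydroxylase whose gene is itself switched on by hypoxia-inducible factors, was at 9.55 ± 2.19 FPKM at 3d and 37.4 ± 1.08 FPKM at E18 (log2 fold change -1.89), and was higher again at 8w than at 3d (1.56). Epas1, which encodes HIF-2α, was at 43.7 ± 5.15 FPKM at 3d and 27.1 ± 0.441 FPKM at E18 (0.66). Hif1a was at 75.4 ± 5.56 FPKM at 3d and 89.1 ± 7.29 FPKM at E18, which did not pass the test, and at 40.0 ± 5.58 FPKM at 8w it was lower than at 3d (-0.91). Hif3a was at 0.927 ± 0.634 FPKM at 8w and 39.6 ± 1.33 FPKM at 3d (-4.45).

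Other genes of SLC2, SLC5 and SLC16 carriers, hexokinases and lactate dehydrogenases were mostly too low to test. Of the 28 listed, 27 were found and only 11 passed the filter. Of these, 1 was higher and 1 lower at 3d than at E18 (median 0.00 against -0.15), 4 were higher and 3 lower at 8w than at 3d (median 0.16 against -0.18), and 3 were higher and 3 lower at 8w than at E18 (median 0.02 against -0.32, or 6 higher and 3 lower with edgeR). Ldhd, the mitochondrial D-lactate dehydrogenase, was at 11.7 ± 2.24 FPKM at 8w and 0.501 ± 0.243 FPKM at 3d (log2 fold change 3.08).

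**Figure D4:**
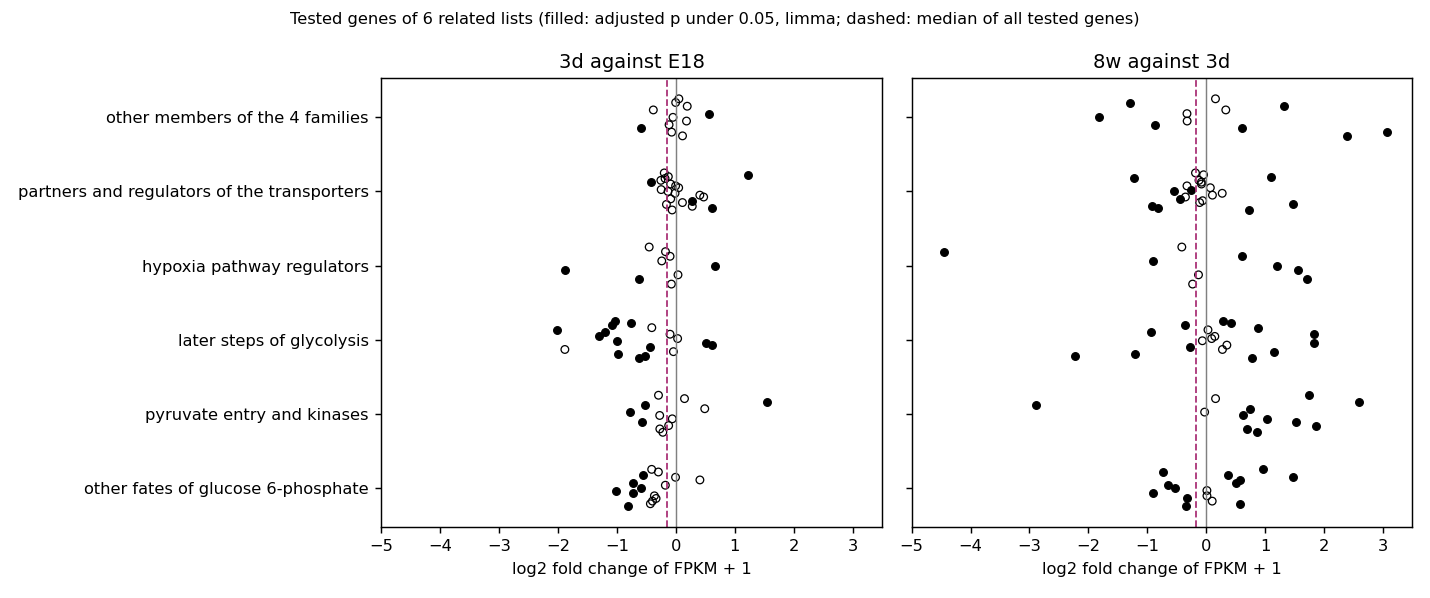
Log2 fold change of FPKM + 1 (x axis) of the tested genes of 6 related lists (rows) for 3d against E18 and 8w against 3d, with filled points for an adjusted p under 0.05 in limma and the dashed line at the median of all tested genes. In the left panel 11 of 18 later glycolysis genes are filled left of 0, and in the right panel 9 of the 12 genes of the pyruvate carrier, pyruvate dehydrogenase, its kinases and its phosphatases are filled right of 0.

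Within the set, levels over the 9 libraries formed groups, given here as a description since the libraries share 3 stages and 1 scale. Slc2a1, Slc2a3, Hk1, Slc16a3 and Ldha tracked one another, for example with Pearson's r of 0.99 for Slc2a3 and Slc16a3 and 0.97 for Slc2a1 and Ldha on log2(FPKM + 1). Slc2a4 tracked Ldhb (r = 0.98) and Slc2a12 (0.92), and Hk2 tracked Slc16a1 (0.92). Of the pairs of forms, Slc2a1 with Slc2a4 had r of -0.81 and Ldha with Ldhb -0.53, while Hk1 with Hk2 (-0.22) and Slc16a1 with Slc16a3 (also -0.22) had little relation.

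Among 5778 genes with a mean of at least 10 FPKM, those with a course most like each member were then listed. For Slc2a1 they were Kpnb1 (r = 0.998) and Cdc42 (0.993), for Slc2a3 Rpl8 (0.994), Slc16a3 (0.993) and Ccnd2 (0.992), and for Hk1 Hsd17b12 (0.996), B4galt6 and Nol11 (both 0.994). For Slc16a3 they were Ccnd2 (0.993), Acer2 (0.989) and Ppp1r8 (0.988), and for Ldha Plod2 (0.990), Pgk1 and Rps16 (both 0.989). On the rising side Slc2a4 was most like Fbxo40 (0.997), Gpd1l and Bag3 (both 0.996), and Ldhb most like Pfkm (0.997), Prosc (0.996) and Gpc1 (0.994). Slc2a12 was most like Acot13, Ppt1 (both 0.964) and Optn (0.959). Of the genes that dipped at 3d, Hk2 was most like Plekhb2 (0.986), Reep5 and Mrps24 (both 0.982), and Slc16a1 most like Slc25a3, Tefm (both 0.992) and Psmd2 (0.991). A high r does not mean a change of like size: Kpnb1 was at 34.5 FPKM at 8w and 74.9 FPKM at E18, a smaller fall than that of Slc2a1.

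The table of circular RNAs, which are closed by a back-splice and counted by junction reads, listed 1 of its 4610 entries at the 10 genes. It spans chr3:104652742-104653587 within Slc16a1 and had 1 read in E18 replicate 1 and 2 reads in 3d replicate 2, below the 3 reads taken as the limit of detection.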

How the data were processed

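Heart RNA of 9 mouse libraries, 3 at each of 3 stages, was analysed from the processed tables. The submitters' processing notes name cutadapt 1.9.1, HISAT2 2.0.4, Cuffdiff and the builds GRCm38 and mm10. The sources used here give no strand setting or annotation release. FPKM per gene and library were computed by the authors, per the file headers. The estimated counts deposited in the same table were fragments multiplied by 1 factor per library: after division 94.2% to 95.1% of low values were whole within 0.01. Junction read counts of circular RNAs were deposited by the authors; 9 more columns there matched no library by name and were not used.

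From these, 22564 coding entries were summed to 22481 genes by name, and the 11930 with a mean of at least 1 FPKM entered a limma-trend fit on log2(FPKM + 1), run with limma 3.58.1 in R 4.3.3. All libraries were in 1 fit with 6 residual degrees of freedom, and p-values were adjusted over all tested genes by Benjamini-Hochberg. Paralog ratios were compared with two-sided exact permutation tests. The alternatives were a pseudocount of 0.1, no filter, quantile normalization, median centring, edgeR 4.0.16 quasi-likelihood with TMM on recovered fragments, fits of 2 stages, a replicate block and leaving out each library. The fits were tested on simulated data.

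The members and gene lists were chosen with earlier results of these data known. From each list and comparison, up to 2 rises and 2 falls with the largest log2 fold change, an adjusted p under 0.05 and at least 5 FPKM in the higher stage were eligible to be named; Gapdh was added for its spread after its values were seen. Likeness was ranked by Pearson's r among genes with a mean of at least 10 FPKM, leaving out clone names. Some genes that met these rules are not reported here. Gene positions are from GENCODE vM21 (GRCm38), and promoter sequences are from RefSeq (GRCm38.p6). Precision is limited by 3 libraries per stage and, for Slc2a3 and Slc16a3 at 8w, by fewer than 60 estimated fragments per library.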

Additional observations from a re-analysis of the deposited data

Results flagged for a closer look

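The table of long non-coding RNAs, which enters no comparison above, holds 11 entries at the 10 genes, of which 6 were at 0 in all libraries. Another 4 exceeded 3 estimated fragments in at least 1 library, the limit that a count of 0 allows, for counting error only. The notes give no strand setting, so fragments of these entries and of the coding genes cannot be told apart with certainty.

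The largest signal was at Ldha, where an entry that overlaps its exons on the same strand (uc009gzn.2) had 18.4, 0.00149 and 9.54 fragments in the E18 libraries and at most 0.0015 in the others; it shares sequence with Ldha. Gm17034, an entry antisense to Hk2 within an intron, had 3.24, 1.12 and 2.21 fragments at E18, 11.01, 15.4 and 11.1 at 3d, and 3.21, 0 and 0 at 8w, and so was highest at 3d, where Hk2 was lowest. At Hk1 an antisense intronic entry (ENSMUST00000143122) reached 11.2 fragments in E18 replicate 2, with 1.58 and 6.64 in the other E18 libraries, at most 2.02 at 3d and at most 1.22 at 8w. A further antisense entry at Hk1 (ENSMUST00000123457) reached 3.82 fragments in E18 replicate 1. These differences were not tested.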

How the results depend on the processing

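For 24 of the 30 gene comparisons the direction and the call held under all alternatives, and 453 of 480 recomputed values did so. The signs that turned were those of Ldhb for 3d against E18 (0.18 with quantile normalization, 0.0922 with median centring, 0.0437 with edgeR) and Ldha for 8w against 3d (0.14 with edgeR); the cause was not tested. The calls of Slc2a4 and Slc16a1 at 3d against E18, and of Slc2a3, Hk1 and Ldha at 8w against 3d, changed as given with each gene. Leaving out 1 library left 6 to 7, 8 to 10 and 10 members called in the 3 comparisons. Over all genes it left 1823 to 3339 called for 3d against E18, where 3153 were called with all libraries, and the low values came without E18 replicate 1 (2016), 2 (1961) or 3 (1823).

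With a pseudocount of 1 on both genes, the log2 ratio of Slc2a1 over Slc2a4 differed by -2.18, -3.22 and -5.39 in the 3 comparisons, and that of Slc16a3 over Slc16a1 by -4.36 for 8w against E18. With fragments in place of FPKM, Slc2a1 over Slc2a4 differed by -5.62 for 8w against E18.

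Replicate numbers did not pair the libraries: correlations of same-numbered deviations ran from -0.13 to 0.10. With the replicate block 7, 8 and 10 members were called and 2686, 6750 and 7575 genes in all, and the call of Slc2a3 at 8w against 3d was lost (adjusted p = 0.0505, limma). The FPKM of Hk2, Slc2a3 and Slc16a3 depend on how the authors' software scaled fragments in each library, and low fragment numbers limit Slc2a3 and Slc16a3 at 8w.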
